A study of Octopus bimaculoides with 6 samples.

Results

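Transcripts of 3 genes that belong to the pathway of active cytosine demethylation were followed across 6 RNA-seq libraries of the octopus *Octopus bimaculoides*: TET1 (Ocbimv22017286m), TET2 (Ocbimv22016040m) and TDG (Ocbimv22032177m). They were chosen by transcript identifier, with the gene names that the study assigned by homology, and the rule that selects them uses no expression value. The members are thus 3 of the 40327 transcripts quantified in every library, of which 38556 are coding and 1771 are non-coding RNAs. The study named 9 further transcripts as readers or writers of DNA methylation, and these served as the reference list.

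Each of the 6 groups was 1 library. The distal, medial and proximal sections came from the first left arm (L1) of 1 wild-caught adult male (OB-5), 3 pieces of the arm cut at distances of 1.5, 3.5 and 5.5 cm to its end. The male arm tip came from L1 of a further adult male (OB-2) and the female arm tip from L1 of an adult female (OB-9), each taken 1.5 cm from the end. The hatchling library came from 1 whole animal at 30 days post fertilization (dpf), labelled male. The 5 arm libraries therefore represent 3 adults, whereas the hatchling contained every organ of a young animal. Adult arm and whole hatchling differ in age, in tissue and in animal, and these cannot be told apart. In bulk RNA, fewer cells that carry a transcript and less of it per cell cannot be told apart either.

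5-methylcytosine can be lost passively, when it is not copied at replication, or removed by enzymes. TET proteins are dioxygenases that need iron and 2-oxoglutarate, and oxidize 5-methylcytosine to 5-hydroxymethylcytosine and on to 5-formylcytosine and 5-carboxylcytosine. In mammals, thymine DNA glycosylase (TDG) cuts out the formyl and carboxyl forms, and base excision repair then restores an unmodified cytosine. TDG also removes thymine that is mispaired with guanine, the product of deamination of a methylated cytosine. These roles were worked out largely in vertebrates, and the enzyme activities of the octopus proteins were not measured in these libraries.

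TET1 and TET2 were distinct genes rather than isoforms: of the RefSeq proteins that the study listed for each, 2 of 4 for TET1 and 2 of 3 for TET2 were found in the RefSeq gene table (assembly ASM119413v2), under LOC106871426 and LOC106871070, respectively. The annotated transcript is 1638 bases for TET1, 5901 bases for TET2 and 999 bases for TDG. Estimated counts of TET1 and TET2 were whole numbers (within 0.001) in all 6 libraries. Those of TDG were not whole in any library, as occurs when reads are divided among similar transcripts, so that levels of TDG carry an uncertainty that the counting intervals do not cover.

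Depth differed between the libraries, with 3161353 to 6524632 summed counts in the sections, 4895641 and 4962432 in the female and male tips and 9081923 in the hatchling. Non-coding RNAs held 39.8% (medial) and 47.3% (proximal) of the TPM total and 61.6% to 63.5% of it elsewhere. Of the estimated counts they held much less, from 4.51% (medial) to 11.7% (male tip). TPM divides each count by transcript length and by the library total. Because it sums to a fixed value, this unequal share lowers every coding transcript in the other 4 libraries. Each level is therefore given as deposited TPM and also as TPM recomputed over the coding transcripts alone (coding TPM), and directions that differ between them are stated. The reads of the hatchling also went through an additional trimming step (Fastp) that the methods give for no other library, and its part in the values was not tested.

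All 3 transcripts were detected in all 6 libraries, at low to moderate levels. In deposited TPM, TET1 and TET2 reached at most 7.62 and 11.04 and TDG at most 4.81, each in the male arm tip. The lowest value of each was in the hatchling, at 2.61 for TET1, 5.76 for TET2 and 1.77 for TDG. Levels below are set beside 95% intervals that cover counting error only, since copies made by PCR were not tagged and no group had a second library.

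TET1, an oxidizing enzyme, had an estimated count of 73 in the distal piece, 95 in the medial piece and 122 in the proximal piece, 120 in the male tip, 114 in the female tip and 94 in the hatchling. As deposited TPM this was 6.88 (5.39 to 8.65) in the distal piece, 6.19 (5.01 to 7.57) in the medial piece and 7.16 (5.95 to 8.55) in the proximal piece, 7.62 (6.32 to 9.12) in the male tip, 7.13 (5.88 to 8.57) in the female tip and 2.61 (2.11 to 3.19) in the hatchling. The 5 arm libraries lay close together and the hatchling lay apart, below the lower bound of each of them. In descending order, male tip, proximal section, female tip, distal section and medial section, no neighbours differed beyond counting error, while the medial section exceeded the hatchling 2.38-fold (1.79 to 3.16).

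On the coding scale, TET1 was 18.8 in the distal piece, 10.3 in the medial piece and 13.6 in the proximal piece, 19.8 in the male tip, 19.6 in the female tip and 7.11 in the hatchling. The arm libraries now fell into a higher group, the tips and the distal section, and a lower one, the proximal and medial sections. Here the distal section exceeded the proximal section 1.38-fold (1.04 to 1.85), and the proximal section exceeded the medial section 1.32-fold (1.01 to 1.73). After TMM scaling, as in deposited TPM, no neighbours among the arm libraries differed beyond counting error. Arm libraries further apart in those orders were not all compared, and the medial section was the lowest arm library under all 3 scalings. The proximal section stood above the female tip after TMM scaling (6.58 and 6.43) and in deposited TPM. The division into these groups was thus seen on the coding scale, whereas the hatchling was lowest under all 3.

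TET2, the longer of the TET transcripts, had the highest estimated counts of the 3, with 241 in the distal piece, 501 in the medial piece and 475 in the proximal piece, 595 in the male tip, 520 in the female tip and 657 in the hatchling. Its deposited TPM was 7.07 (6.21 to 8.02) in the distal piece, 9.82 (8.98 to 10.7) in the medial piece and 8.44 (7.69 to 9.23) in the proximal piece, 11.04 (10.2 to 11.97) in the male tip, 9.67 (8.86 to 10.5) in the female tip and 5.76 (5.33 to 6.22) in the hatchling. The male tip, the medial section and the female tip, in descending order, could not be told apart as neighbours. The female tip exceeded the proximal section 1.15-fold (1.01 to 1.30), which in turn exceeded the distal section 1.19-fold (1.02 to 1.39), and the distal section exceeded the hatchling 1.23-fold (1.06 to 1.42). TET2 thus declined in small steps where TET1 had a single gap.

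In coding TPM, TET2 was 19.3 in the distal piece, 16.3 in the medial piece and 16.0 in the proximal piece, 28.7 in the male tip, 26.5 in the female tip and 15.7 in the hatchling. On this scale the hatchling could not be told from the proximal section, which was 1.02-fold higher (0.905 to 1.15), and both tips stood above the rest. The female tip exceeded the distal section, the next in order, 1.37-fold (1.18 to 1.60).

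TDG, the glycosylase, was the least abundant and the least precisely measured, with 21.7 estimated counts in the distal piece, 23.6 in the medial piece and 30.0 in the proximal piece, 47.7 in the male tip, 31.0 in the female tip and 39.3 in the hatchling. Its deposited TPM was 3.29 (2.09 to 5.05) in the distal piece, 2.54 (1.65 to 3.83) in the medial piece and 2.93 (1.98 to 4.19) in the proximal piece, 4.81 (3.57 to 6.42) in the male tip, 3.01 (2.05 to 4.28) in the female tip and 1.77 (1.25 to 2.40) in the hatchling. In descending order, male tip, distal section, female tip, proximal section, medial section and hatchling, no neighbours differed beyond counting error. Beyond neighbours, the male tip exceeded the hatchling 2.72-fold (1.78 to 4.15) and the distal section 1.86-fold (1.10 to 3.15). For the female tip the fold was 1.71 (1.06 to 2.73), for the proximal section 1.66 (1.03 to 2.67) and for the medial section 1.44 (0.862 to 2.39). After TMM scaling only the interval of the male tip, 1.85 (1.21 to 2.82), lay above 1. In coding TPM the lowest library was the medial section, at 4.21, with the hatchling at 4.82 and the proximal section at 5.56. The distal section was at 9.01, the female tip at 8.26 and the male tip at 12.5, so the place of TDG in the hatchling depended on the scale.

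**Figure D1:**
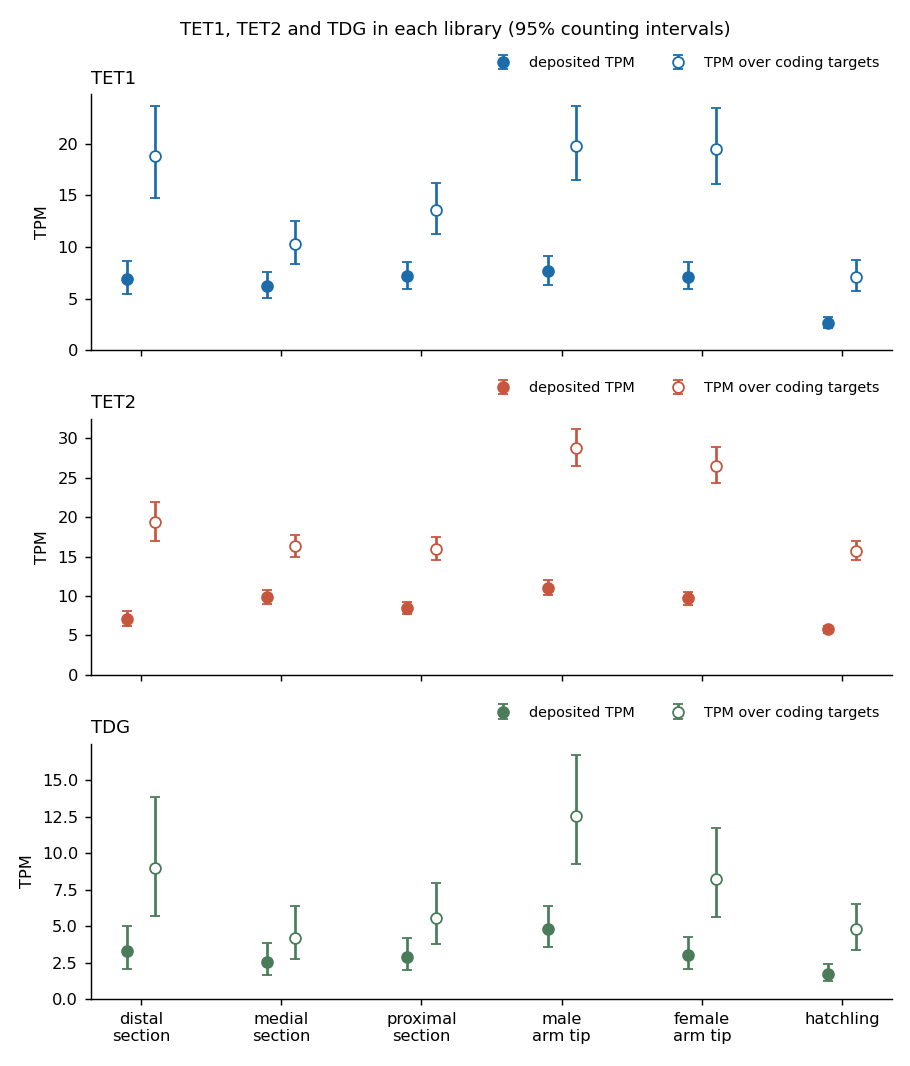
TPM (vertical axis, linear from 0) of TET1, TET2 and TDG in each of the 6 libraries, as deposited (filled points) and over coding transcripts only (open points); bars are 95% intervals of counting error. TET1 in the hatchling, at 2.61 deposited TPM, lies below all 5 arm libraries, which span 6.19 to 7.62.

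The position of a transcript among all coding transcripts of its own library does not depend on the scale. TET2 exceeded 77.9% of coding transcripts in the distal piece, 79.1% in the medial piece and 78.2% in the proximal piece, 84.8% in the male tip, 81.5% in the female tip and 78.9% in the hatchling. Its rank in the hatchling was thus within that of the arm sections. These shares count undetected transcripts as lower, and the number detected ran from 28906 in the distal section to 32199 in the hatchling. Among detected coding transcripts alone, TET2 exceeded 74.7% in the hatchling, above the distal (70.5%), medial (73.8%) and proximal (72.5%) sections. TET1 exceeded 77.4% in the distal piece, 70.1% in the medial piece and 75.2% in the proximal piece, 78.0% in the male tip, 75.1% in the female tip and only 62.6% in the hatchling. TDG exceeded between 51.9% in the medial section and 67.7% in the male tip, with 54.2% in the hatchling inside that range. Of the 3, only TET1 had its lowest rank in the hatchling.

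**Figure D2:**
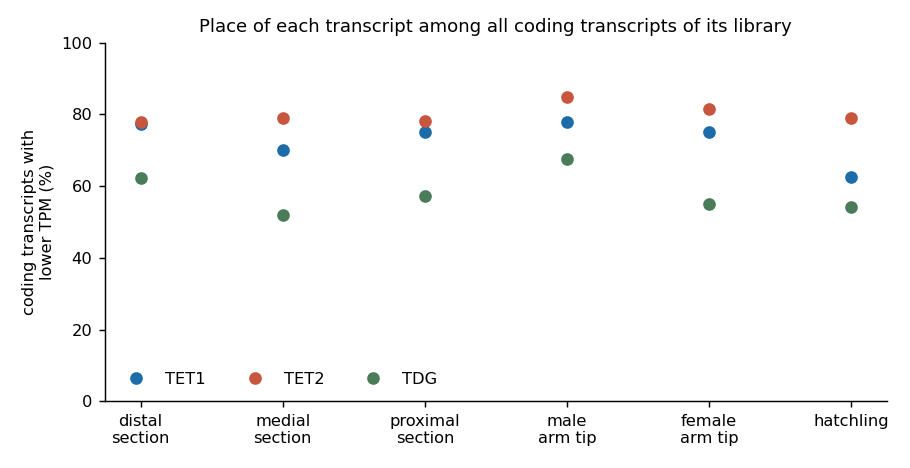
Share of coding transcripts with a lower TPM (vertical axis, percent) for TET1, TET2 and TDG in each library. TET1 is at 62.6% in the hatchling against 70.1% to 78.0% in the arm libraries, while TET2 stays between 77.9% and 84.8%.

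TET2 was the most even of the 3 over the libraries. Its highest deposited TPM was 1.92 times its lowest, compared with 2.93 times for TET1 and 2.72 times for TDG. Among the 13480 coding transcripts with at least 20 estimated counts in each library, the median of this range was 2.76, and 15.7% had a smaller range than TET2. In coding TPM the ranges were 1.83 for TET2, 2.79 for TET1 and 2.97 for TDG, beside a median of 2.57. TET1 and TDG therefore varied about as much as the median transcript of this set on these scales. After TMM scaling the range of TET1 was 1.99 beside a median of 2.33, and 34.5% had a smaller range. The set was not matched for depth, and counting error adds to these ranges, most for TDG.

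The balance between the TET transcripts was compared within each library, where scaling cancels. The ratio of TET2 to TET1 TPM was 1.03 (0.788 to 1.35) in the distal piece, 1.59 (1.27 to 2.00) in the medial piece and 1.18 (0.963 to 1.45) in the proximal piece. It was 1.45 (1.19 to 1.78) in the male tip, 1.36 (1.11 to 1.68) in the female tip and 2.21 (1.78 to 2.78) in the hatchling. TET2 thus exceeded TET1 in the hatchling, in both tips and in the medial section, whereas the ratio could not be told from 1 in the distal and proximal sections.

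The hatchling had the highest ratio, 1.70-fold (1.34 to 2.15) above the mean of the arm libraries on the log scale. Against single arm libraries it was 2.15-fold higher than the distal section, 1.88-fold higher than the proximal section, 1.63-fold higher than the female tip, 1.53-fold higher than the male tip and 1.39-fold (1.03 to 1.90) higher than the medial section. With effective lengths all 5 intervals lay above 1, that of the medial section by the smallest margin. These intervals set no animal-to-animal variation beside the difference. Use of annotated in place of effective transcript length gave 1.94 in the hatchling and 0.916 to 1.46 in the arm libraries. The highest of these arm values was that of the medial section. The 5 comparisons were not repeated with annotated lengths. Whether the interval against the medial section would stay above 1 was therefore not tested.

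The TET transcripts each exceeded TDG in every library. The ratio of TET1 to TDG was 2.09 in the distal piece, 2.44 in the medial piece and 2.44 in the proximal piece, 1.58 in the male tip, 2.37 in the female tip and 1.47 in the hatchling. In the hatchling its interval, 1.01 to 2.22, only just excluded 1 and does not cover the division of TDG reads. The ratio of TET2 to TDG ranged from 2.15 in the distal section to 3.87 in the medial section and was 3.26 in the hatchling. Hatchling against arm, the TET1 to TDG ratio was 0.684 times (0.451 to 1.04) and the TET2 to TDG ratio 1.16 times (0.806 to 1.67) that of the arm mean, so neither difference was detectable at the depth of TDG.

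**Figure D3:**
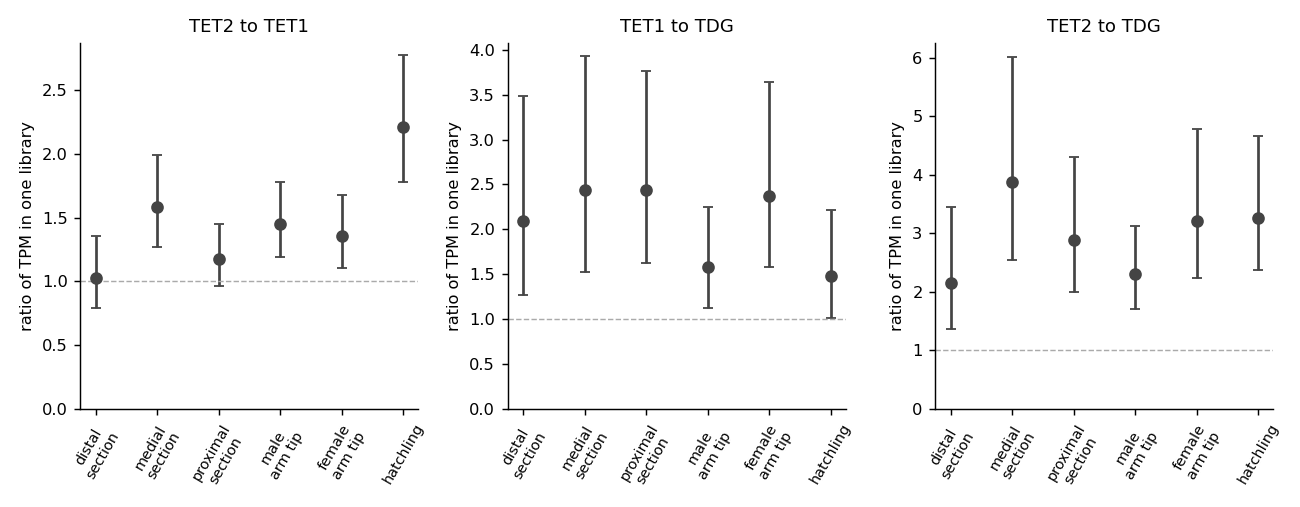
Ratio of deposited TPM between pairs of transcripts within each library (vertical axes, linear from 0), with 95% exact binomial intervals of counting error; the dashed line marks equal levels. The TET2 to TET1 ratio is 2.21 in the hatchling and 1.03 to 1.59 in the arm libraries.

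Summed over the 3 transcripts, the pathway had 10.1 TPM in the hatchling and between 17.2 TPM in the distal section and 23.5 TPM in the male tip among the arm libraries. TET2 made up 56.9% of this sum in the hatchling and 41.0% in the distal section, its extremes. In coding TPM the sum was 27.7 in the hatchling, 30.8 in the medial, 35.2 in the proximal and 47.2 in the distal piece, 54.3 in the female tip and 61.1 in the male tip. The hatchling was lowest on both scales, although its distance from the medial section was small on the coding scale.

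The comparison of the whole hatchling with the 5 arm libraries asked how the genes stood in a young animal against adult arm. Differences between libraries are of log2(TPM + 1), hatchling minus the mean of the arm libraries, and a transcript was called at a difference of at least 1 (2-fold) on this scale. With 1 library per group there is no test across replicates. TET1 was at −1.15 (−1.38 to −0.91), and its arm level was 2.68 times (2.15 to 3.34) that of the hatchling without the pseudocount. It was the 1 of 3 members called, where 16% of the 30226 coding transcripts that reached 1 TPM in some library were called lower. Only 10.8% of those transcripts had a more negative difference than TET1. The median transcript was itself at −0.42.

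TET2 differed by −0.58 (−0.69 to −0.47) and TDG by −0.62 (−0.96 to −0.28), both near the median of all coding transcripts, with 38.7% and 36.1% of them lower. In coding TPM the differences were −1.06 (−1.34 to −0.78) for TET1, −0.38 (−0.50 to −0.26) for TET2 and −0.54 (−0.96 to −0.11) for TDG, and the median was −0.32. TET1 was again the 1 member called, beside 16.4% of coding transcripts called lower.

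After TMM scaling, which sets the bulk of transcripts equal between libraries, the median was −0.02 and TET1 was at −0.66 (−0.91 to −0.40), no longer past 2-fold. TET2 was then at −0.02 (−0.14 to 0.09) and TDG at −0.19 (−0.55 to 0.18). Relative to the median transcript, TET1 was therefore lower in the hatchling under each scaling while its size, and hence its call, depended on the scaling. TET2 and TDG followed the bulk of transcripts.

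The low TET1 level was seen against each arm library separately. Without a pseudocount, the arm library exceeded the hatchling 2.64-fold for the distal piece, 2.38-fold for the medial piece, 2.75-fold for the proximal piece, 2.93-fold for the male tip and 2.74-fold for the female tip in deposited TPM. In coding TPM these folds were 2.65, 1.45, 1.91, 2.79 and 2.75 in the same order, and after TMM scaling 1.91, 1.35, 1.75, 1.99 and 1.71. All 15 intervals lay above 1, but they share the 1 hatchling library and rescale the same 5 pairs of counts, so they are not independent of each other. The medial section was the closest to the hatchling under each scaling, and against it 26.2% of coding transcripts in deposited TPM, 28.1% in coding TPM and 27.7% after TMM scaling had a more negative difference than TET1.

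**Figure D4:**
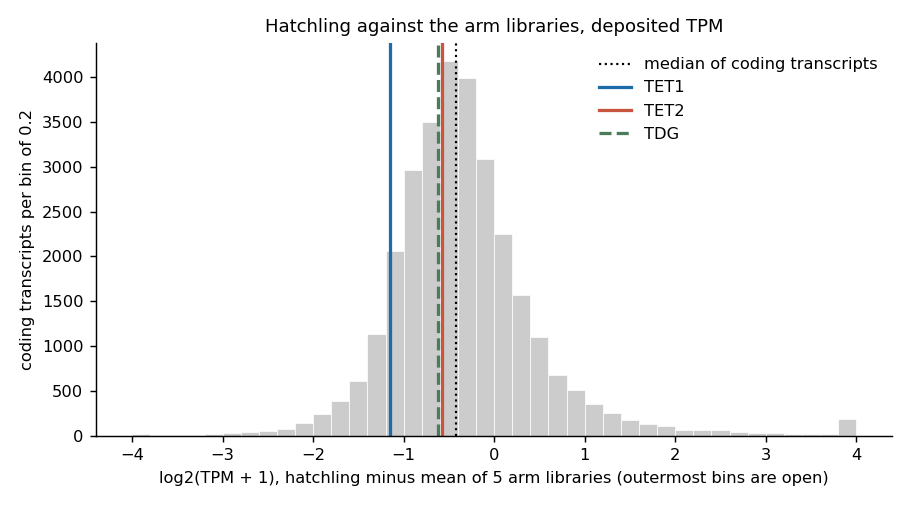
Number of coding transcripts (vertical axis) by their difference of log2(TPM + 1), hatchling minus the mean of the 5 arm libraries, in deposited TPM; vertical lines mark TET1, TET2, TDG and the median transcript, and the outermost bins collect values beyond the axis. TET1 at −1.15 lies in the lower tail and TET2 at −0.58 and TDG at −0.62 lie beside the median of −0.42.

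Along the arm of OB-5, the distal section was set against the mean of the medial and proximal sections, which asks whether the genes differ along an arm. None of the 3 members reached 2-fold either way, where 16.7% of 27095 coding transcripts did. TET1 differed by 0.04 (−0.29 to 0.37), TET2 by −0.32 (−0.50 to −0.14) and TDG by 0.20 (−0.34 to 0.75) in deposited TPM, with the median transcript at −0.30. In coding TPM, TET1 was at 0.63 (0.27 to 0.99), TET2 at 0.25 (0.05 to 0.44) and TDG at 0.78 (0.14 to 1.41), with the median at 0.21. The direction of TET2 thus turned with the scale while its place did not, since it lay beside the median in both. TET1 exceeded 72.7% of transcripts in this difference and TDG 80.1%, and after TMM scaling 74.2% and 80.0%, when neither could be told from 0.

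Both arm tips, of 1 male and 1 female, were next set against the same medial and proximal sections, so that position and animal changed together. In deposited TPM the differences were 0.13 (−0.11 to 0.36) for TET1, 0.17 (0.05 to 0.28) for TET2 and 0.37 (−0.01 to 0.75) for TDG, with a median of −0.01. No member reached 2-fold, where 24.3% of 29159 coding transcripts did. In coding TPM they were 0.69 (0.44 to 0.94) for TET1, 0.74 (0.62 to 0.86) for TET2 and 0.94 (0.50 to 1.37) for TDG, with a median of 0.48. All 3 were above the median on either scale, and TDG the furthest, exceeding 68.0% of transcripts in deposited TPM. The 2 tips differed in this. In deposited TPM, TDG was at 0.64 (0.20 to 1.08) for the male tip alone and 0.11 (−0.37 to 0.58) for the female tip alone. TET2 was at 0.25 (0.12 to 0.39) for the male tip and 0.08 (−0.06 to 0.22) for the female tip. The distal section of OB-5, taken at the same distance from the end as the tips, had a lower TET2 level than both tips on either scale. This and the previous comparison share their medial and proximal libraries.

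The female tip was compared with the male tip as 2 libraries from 2 animals, not as a comparison of the sexes. No member reached 2-fold, where 12.9% of 27464 coding transcripts did. TET1 differed by −0.08 (−0.41 to 0.24), female minus male, which was within counting error. TET2 was slightly lower in the female tip, at −0.17 (−0.33 to −0.02), and TDG was at −0.53 (−1.04 to −0.02). In coding TPM the intervals of TET2, −0.11 (−0.28 to 0.05), and TDG, −0.55 (−1.14 to 0.04), included 0. TDG had a difference above that of 12.3% of coding transcripts only, although it rests on 47.7 and 31.0 estimated counts.

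The adjacent medial and proximal sections of OB-5 give the scale of difference within 1 arm. In deposited TPM, medial minus proximal, TET1 was at −0.18 (−0.52 to 0.15), TET2 at 0.20 (0.03 to 0.36) and TDG at −0.15 (−0.72 to 0.41). In coding TPM, TET1 was at −0.37 (−0.73 to −0.02), TET2 at 0.02 (−0.15 to 0.19) and TDG at −0.33 (−0.98 to 0.31). No member reached 2-fold, where 10.7% of 26128 coding transcripts did.

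The 9 other transcripts of DNA methylation proteins comprise the maintenance pair DNMT1 and UHRF1, the de novo methyltransferase transcripts DNMT3B and DNMT3B.1, and the methyl-CpG binding domain transcripts MBD2, MBD2.1, MBD4, MBD5 and MBD5.1. In the hatchling against the arm libraries, 2 of these 9 were called lower and none higher in deposited TPM, beside 16% lower and 5.2% higher among all coding transcripts, with 5 below 0, 4 above 0 and a median of −0.44, beside a median of −0.62 for the members. The called transcripts were MBD5 at −1.35 and MBD5.1 at −1.07. MBD5 and MBD5.1 carry consecutive identifiers. Estimated counts of MBD5.1 were whole numbers in all 6 libraries, so no division of reads between the pair was seen. Those of MBD5 were not whole in the proximal section, the hatchling and the female tip. DNMT1, which copies methylation to the new strand, was at −0.63 and UHRF1, which brings it to hemimethylated DNA, at 0.15. On the coding scale only MBD5 of the 9 was called, at −1.17, and after TMM scaling none of the 9, nor any member, was, beside 5.72% of coding transcripts called lower.

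MBD4 is the other glycosylase of the list, and in mammals removes thymine from the same mispair as TDG. Its deposited TPM was 4.00 in the distal piece, 5.22 in the medial piece and 5.51 in the proximal piece, 2.80 in the male tip, 3.44 in the female tip and 2.32 in the hatchling. On this scale MBD4 was highest in the sections in which TDG was at 2.54 and 2.93. It was low in the male tip, in which TDG was highest. In coding TPM, MBD4 was highest in the distal section (10.96), and its medial level (8.66) was below that of the female tip (9.42). MBD4 stayed lowest among the arm libraries in the male tip, at 7.29. For the arm tips against the medial and proximal sections, the difference of MBD4 was −0.63 (−0.90 to −0.36) and that of TDG 0.37 (−0.01 to 0.75). In coding TPM they were −0.18 (−0.48 to 0.13) and 0.94 (0.50 to 1.37), so the intervals of the pair did not overlap on either scale. How often the intervals of other pairs fail to overlap was not computed, and these intervals do not cover the division of TDG reads. These values are means of both tips, and for the female tip alone TDG was at 0.11 (−0.37 to 0.58) in deposited TPM. For the distal section of OB-5 against the same sections the intervals overlapped, with MBD4 at −0.35 (−0.73 to 0.04) and TDG at 0.20 (−0.34 to 0.75). In the hatchling comparison the pair had nearly the same difference, both at −0.62.

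Over that tip comparison, 1 of the 9 other transcripts was called higher (DNMT3B.1, at 1.02) and 1 lower (DNMT3B, at −1.004), beside 9.48% higher and 14.8% lower among all coding transcripts. The median of the 9 was −0.43, with 5 below 0 and 4 above 0, while the 3 members lay between 0.13 and 0.37. Besides DNMT3B.1, those above 0 were DNMT1 at 0.12, MBD5 at 0.37 and MBD5.1 at 0.40. A positive difference was thus not particular to the members. DNMT3B and DNMT3B.1 are likewise consecutive, and each was listed at 0 in a library where the other was not. Their reads may be assigned to either, and the pair is therefore uncertain.

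**Figure D5:**
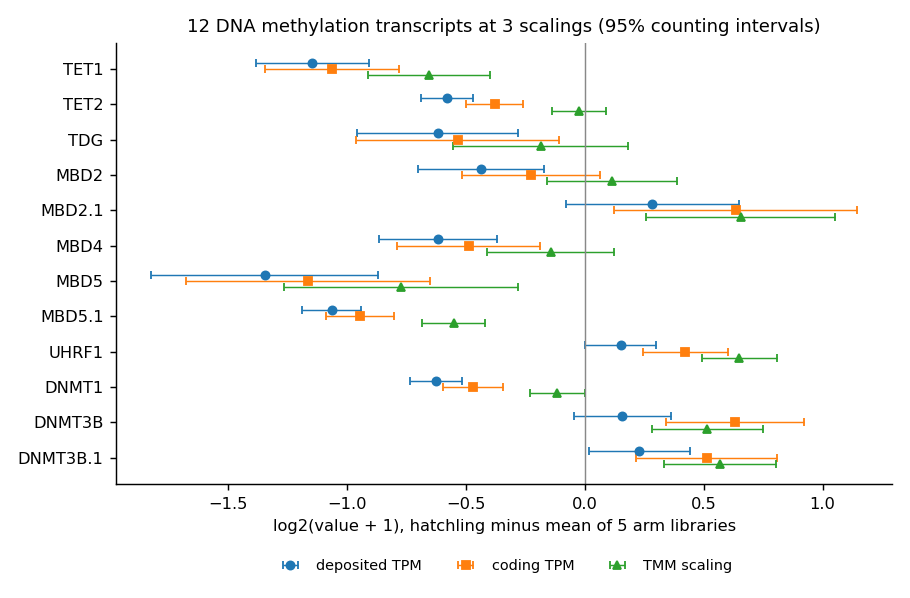
Difference of log2(value + 1), hatchling minus the mean of 5 arm libraries (horizontal axis), for the 12 DNA methylation transcripts under 3 scalings, with 95% intervals of counting error. TET1, MBD5, MBD5.1 and, by a small margin after TMM scaling, DNMT1 have intervals below 0 under all 3 scalings, whereas TET2 is at −0.58 in deposited TPM and −0.02 after TMM scaling.

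Across the 6 libraries, the members followed each other to a degree that depended on the scale. Pearson's r of the log2 levels was 0.78 between TET1 and TET2, 0.81 between TET1 and TDG and 0.72 between TET2 and TDG in deposited TPM, and 0.79, 0.85 and 0.88 in coding TPM. After TMM scaling r fell short of these, at 0.24 between TET1 and TET2, 0.66 between TET1 and TDG and 0.65 between TET2 and TDG. The 6 points share the scaling factor of each library, and 3 of them come from 1 animal, so these are descriptions only.

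The transcripts most like each member were taken as the 3 with the highest r in coding TPM among 13479 others with at least 20 estimated counts in each library. For TET1 these were Ocbimv22001831m (r = 0.997), Ocbimv22001972m (r = 0.996) and Ocbimv22020471m (r = 0.995), all lowest in the hatchling. For TET2 they were Ocbimv22004241m (r = 0.999), Ocbimv22016151m (r = 0.998) and Ocbimv22015576m (r = 0.998), all highest in the male tip. For TDG they were Ocbimv22038214m (r = 0.993), Ocbimv22005680m (r = 0.991) and Ocbimv22003171m (r = 0.990), also highest in the male tip. With 6 points high values are common: 3.70% of the transcripts had r of at least 0.95 with TET1, 8.80% with TET2 and 1.38% with TDG. None of the 9 was among the closest 3 in deposited TPM.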

How the data were processed

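RNA of 6 *O. bimaculoides* samples (rRNA removed, 150 bp paired-end reads) was processed by the authors with FastQC 0.11.5, Trimmomatic 0.36 and kallisto with bias correction, against the *O. bimaculoides* genome and its annotation (a build other than the RefSeq table's); the kallisto version is not given in the sources used here, and Fastp was added for the hatchling. The deposited estimated counts and the TPM that the authors computed from counts and effective lengths were used as given. Bias correction made the effective length exceed the annotated length in 5 of 6 libraries for TET1 and TDG.

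Coding TPM was TPM rescaled over targets of the Ocbimv series. TMM factors (edgeR 4.0.16, R 4.3.3) and size factors (DESeq2 1.42.0) came from estimated counts rounded to whole numbers, with no model fitted. Intervals (95%) are exact binomial (Clopper-Pearson) for levels and ratios, and approximate for log2 differences (Python 3.11.15, scipy 1.17.1). Only the intervals of log2 differences were tested on simulated data, without the pseudocount and for transcripts with at least 20 counts. The simulated counts held counting error alone, so they could not test the intervals against other variation. Differences used a pseudocount of 1, and background counts a minimum of 1 TPM. Since every group is 1 library, no p-value was computed, and samples were grouped by their labels.

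Named transcripts were the 3 members, the 9 other DNA methylation transcripts, and for each member the 3 with the highest r. Members were selected by identifier, but these genes and lists were proposed with earlier results of these data known. Lists of base excision repair genes, TET cofactors and muscle and neuron markers were not analysed here, since target identifiers could not be linked to gene names, and the arm tissue was therefore not checked against markers. No member matched the RefSeq table by its own identifier. Other scalings, pseudocounts, minimums and left-out libraries were tried as alternatives.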

Additional observations from a re-analysis of the deposited data

How the results depend on the processing

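Of 122 values under alternatives, 98 moved by less than their counting interval (for counts, by less than 1.5 times), 23 moved by more and 1 reversed. The 98 include 5 background counts without a minimum TPM, which could not move. A transcript below 1 TPM in each library cannot reach a difference of 1 with a pseudocount of 1. For the hatchling against the arm libraries, TET1 went to −0.66 with TMM and −0.66 with DESeq2 factors, and to −1.39 with a pseudocount of 0.1. TET2 went to −0.38 in coding TPM, −0.024 with TMM, −0.027 with DESeq2 factors, −0.47 against the OB-5 sections alone and −0.75 against the tips alone. TDG went to −0.19 with either set of factors. Leaving out each arm library in turn gave −1.18 to −1.12 for TET1, −0.66 to −0.52 for TET2 and −0.69 to −0.51 for TDG. The log2 difference in the TET2 to TET1 ratio, 0.76 (0.42 to 1.10) against all arm libraries, was 1.11 against the distal section alone, an alternative chosen after seeing the data.

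For the distal section, coding TPM gave 0.63 for TET1 and 0.78 for TDG and reversed TET2 from −0.32 to 0.25, and TET2 was −0.085 with TMM and −0.10 with DESeq2 factors. For the tips, coding TPM gave 0.69, 0.74 and 0.94 for TET1, TET2 and TDG. For medial against proximal, it gave 0.024 for TET2. Coding TPM is by construction deposited TPM times 1 factor per library, from 1.66 in the medial section to 2.74 in the female tip. Of the 3 transcripts most like each member, 0 of TET1, 0 of TET2 and 0 of TDG remained in deposited TPM, and TET1 kept 1 at a minimum of 5 counts. The background counts moved with the fold chosen: for the hatchling, 14431 transcripts (47.7%) passed 1.5-fold and 940 (3.11%) passed 4-fold. Depth limits TDG most. No paired analysis was possible because each group has 1 library and the groups share no second replicate number.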
